A study of Mus musculus with 26 samples.

Results

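Csf1 and Csf1r are the gene of a cytokine and the gene of its receptor, and they were chosen by their symbols. They are 2 of the 13650 genes that the deposited tables list for 2 kinds of cultured mouse cell, and both are listed for both kinds. The study grew fibroblasts and macrophages alone or together, in plain medium or in medium conditioned by cancer cells, and asked how the partner cell and the cancer medium shape each transcriptome. It holds 26 libraries of messenger RNA, 12 from fibroblasts and 14 from macrophages.

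The fibroblasts came from the mammary fat pads of BALB/c females aged 8 weeks, with 2 mice pooled for each replicate. They were depleted of CD45- and EpCAM-positive cells and expanded on collagen I before the experiment. The macrophages were grown for 7 days from bone marrow of BALB/c females, also aged 8 weeks, in DMEM with 20% medium conditioned by L929 cells, which secrete CSF1. 4T1 CM is medium conditioned by 4T1, a BALB/c mammary carcinoma line. Fibroblasts were sorted as cells negative for F4/80 and CD11b, from co-culture in 4T1 CM (4 libraries), co-culture in DMEM (3), mono-culture in 4T1 CM (2) and mono-culture in DMEM (3). Co-cultures were kept for 7 days, and no time is stated for the mono-cultures of either cell type other than day 0. The macrophages are labelled as selected for F4/80 and CD11b, and their libraries were from co-culture in 4T1 CM (4), co-culture in DMEM (3), mono-culture in 4T1 CM (4) and cells at day 0, before the culture began (3). The day 0 libraries were matched through the bracketed code in their titles to columns whose headers read DMEM without a partner, so their medium is given in 2 ways. No macrophage group is labelled as cultured alone in DMEM for longer than day 0, and the effect of co-culture on macrophages was therefore compared within 4T1 CM.

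Csf1 encodes macrophage colony-stimulating factor, a dimeric cytokine made mostly by mesenchymal cells such as fibroblasts, in secreted and membrane-anchored forms. Csf1r encodes a receptor tyrosine kinase of monocytes, macrophages and osteoclasts. Binding of Csf1, or of the second ligand Il34, pairs 2 receptors, which phosphorylate each other and then signal through Src-family kinases, phosphatidylinositol 3-kinase and the MAP kinases for survival, proliferation and differentiation. In the mammary gland and its tumours the pair is known for recruiting and maintaining macrophages.

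In the GENCODE vM21 annotation of mm10, Csf1 lies on the minus strand of chromosome 3 from 107741048 to 107760469. Its proximal promoter is shown because fibroblasts co-cultured in 4T1 CM had more Csf1 than those co-cultured in DMEM. The 250 bases before its start, at chr3:107760470-107760719 on the minus strand of GRCm38.p6, were taken from RefSeq, whose reference strain is C57BL/6J and not the BALB/c of these cells. Capitals mark the only match to the kB consensus, the element bound by NF-kB proteins, at positions -154 to -145 from the start.

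Csf1 promoter: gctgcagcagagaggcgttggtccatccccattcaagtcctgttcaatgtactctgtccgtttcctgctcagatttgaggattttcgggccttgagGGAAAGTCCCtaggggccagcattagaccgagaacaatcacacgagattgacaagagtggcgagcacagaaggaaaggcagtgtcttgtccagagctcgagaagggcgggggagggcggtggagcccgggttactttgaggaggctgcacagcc

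Each motif was searched on both strands of the same 250-base window of all 32851 promoters in the table, and the motifs were picked with the Csf1 sequence in view. The kB consensus was present in 5.0% of promoters. GGGCGG, bound by SP1, matched at 2 places in the Csf1 window and was present in 32.7% of promoters. The window had no match to the AP-1 motif TGANTCA, the C/EBP motif TTGCNNAA or the STAT motif TTCNNNGAA, which were present in 6.75%, 9.56% and 7.02% of promoters. These are matches of letters in a reference sequence, and binding was not measured. Csf1r, for which no sequence is shown, lies on the plus strand of chromosome 18 from 61100598 to 61132149. Its last 873 bases are overlapped on the other strand by Hmgxb3, whose values are given with those of Csf1r.

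Depth lay between 1945980 and 7632366 reads per fibroblast library and between 1434695 and 4140985 reads per macrophage library, over the genes listed. Of 20 macrophage markers, all were above 0 in every macrophage library, where their summed level was 50519 to 86906 CPM, which scales the reads of a library to a common total over the listed genes. The sum of 20 fibroblast markers was 38800 to 61703 CPM in fibroblast libraries. Macrophage markers summed to 50.5 to 311 CPM in fibroblasts co-cultured in 4T1 CM, 728 to 1590 CPM in those co-cultured in DMEM, 144 to 161 CPM in those alone in 4T1 CM and 44.0 to 57.8 CPM in those alone in DMEM. Fibroblast markers summed to 1406 to 10271 CPM in macrophages co-cultured in 4T1 CM, 1114 to 4049 CPM in those co-cultured in DMEM, 10.7 to 75.7 CPM in those alone in 4T1 CM and 28.0 to 31.9 CPM at day 0. Replicates came from separate pairs of mice for fibroblasts, while for macrophages the labels do not say whether the replicates are separate animals, so that spread may be technical. Here and in every comparison below, fewer cells of a type in a library and less RNA per cell cannot be told apart.

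Fibroblasts carried high levels of Csf1 in all groups, and the highest were in co-culture with macrophages in 4T1 CM. Values are the authors' normalized reads, meaning reads divided by 1 size factor per library. Csf1 stood at 9297, 8605, 8093 and 8611 in the 4 libraries of co-culture in 4T1 CM, against 3842, 5943 and 5821 in co-culture in DMEM. The groups did not overlap, and 1 of the 3 DMEM libraries was lower than the others. Csf1 rose by a log2 change of 0.76 ± 0.17 (SE) with 4T1 CM in co-culture, with an adjusted p of 0.0153 in limma, a linear model across all genes with Benjamini-Hochberg adjustment. The threshold was an adjusted p under 0.05, which 5.85% of the 12401 genes tested passed in this comparison. Without co-culture DMEM replicate 1 the change was 0.55 and the adjusted p 0.0785.

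In mono-culture, Csf1 stood at 7504 and 5893 in 4T1 CM, against 4024, 4441 and 4633 in DMEM. Every library in 4T1 CM was above every library in DMEM, but with 2 and 3 libraries such a separation arises easily without a change. How many of all genes separated in this way was not counted, here or in the other comparisons. The log2 change was 0.61 ± 0.20 with an adjusted p of 0.0567 in limma, which misses the threshold that 13.3% of genes passed. It passed under 4 of the other settings, with adjusted p-values of 0.0472 after quantile normalization, 0.0499 with edgeR, 0.0187 with DESeq2 and 0.0441 with the compared groups alone.

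The presence of macrophages by itself moved Csf1 less than the spread allowed to be called. In DMEM, co-cultured fibroblasts had 5202 ± 1180 normalized reads (SD, n = 3) and fibroblasts alone 4366 ± 311 (n = 3), a log2 change of 0.23 ± 0.18 with an adjusted p of 0.708 in limma, where 1.00% of genes passed. In 4T1 CM, co-cultured fibroblasts had 8652 ± 494 (n = 4) and fibroblasts alone 6699 ± 1139 (n = 2). That log2 change was 0.38 ± 0.19 with an adjusted p of 0.559 in limma, in a comparison where 0.0242% of genes passed, and all 4 co-culture libraries lay above both of the others. The test of whether co-culture altered the response to 4T1 CM gave a log2 difference of 0.15 ± 0.26 with an adjusted p of 0.856 in limma, where 0.145% of genes passed. It turned to -0.024 without mono-culture 4T1 CM replicate 2 and to -0.055 without co-culture DMEM replicate 1.

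With both conditions together the difference was clear of the spread. Csf1 in co-culture in 4T1 CM was higher than in mono-culture in DMEM by a log2 change of 0.99 ± 0.17, with an adjusted p of 0.00245 in limma, where 11.4% of genes passed. By mean level the order was co-culture in 4T1 CM, mono-culture in 4T1 CM, co-culture in DMEM and, lowest, mono-culture in DMEM. The libraries of mono-culture in 4T1 CM and of co-culture in DMEM overlapped, and in DMEM the libraries with and without macrophages overlapped too.

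**Figure D1:**
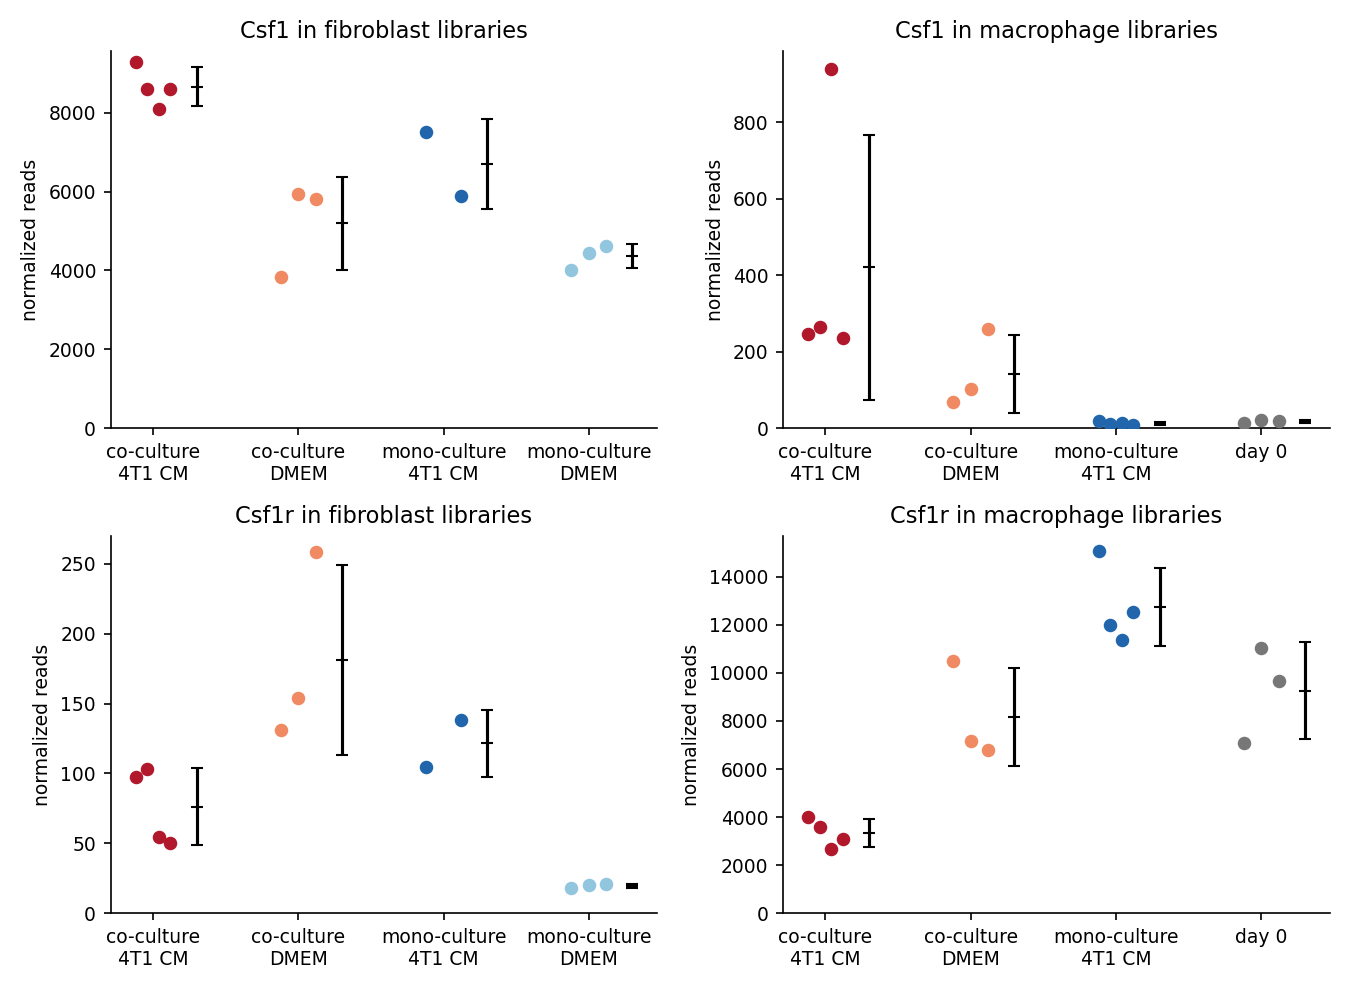
Normalized reads of Csf1 and Csf1r in each fibroblast library (left) and macrophage library (right), with the mean and SD of each group beside the points. Csf1 in fibroblasts is highest in the 4 libraries of co-culture in 4T1 CM, and Csf1r in macrophages is lowest there.

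Macrophage libraries held little Csf1 outside co-culture. It stood at 245, 264, 940 and 236 normalized reads in macrophages co-cultured in 4T1 CM, against 18.7, 11.8, 13.8 and 8.71 in macrophages alone in 4T1 CM. The third co-culture library was far above the other 3, and no library of one group reached the other group. The log2 change of co-culture against mono-culture was 4.91 ± 0.56 with an adjusted p of 1.39e-05 in the quasi-likelihood test of edgeR, where 26.0% of the 10088 genes tested passed.

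Macrophages co-cultured in DMEM had 67.5, 102 and 259 normalized reads of Csf1, against 12.8, 20.9 and 18.6 at day 0. The log2 change was 3.07 ± 0.60 with an adjusted p of 0.00222 in edgeR, where 15.2% of genes passed. Between the co-cultures, Csf1 averaged 421 ± 346 in 4T1 CM (SD, n = 4) and 143 ± 102 in DMEM (n = 3), and the libraries overlapped. That log2 change was 1.52 ± 0.47 with an adjusted p of 0.0508 in edgeR, where 10.3% of genes passed. It ranged from 0.78 to 2.29 as single libraries were left out and passed without co-culture 4T1 CM replicate 1, 2 or 4 or without co-culture DMEM replicate 3, with adjusted p-values of 0.0411, 0.0384, 0.0364 and 0.00857. It did not pass without co-culture 4T1 CM replicate 3 or without co-culture DMEM replicate 1 or 2. The highest adjusted p of edgeR among these runs was 0.219. Between these co-cultures, replicates of the same number correlated across genes at 0.249, 0.185 and 0.416, and 1 unmatched pair at 0.212. Csf1 was higher in 4T1 CM in each of the 3 same-numbered pairs. Replicate 3 had the highest summed fibroblast markers in both co-cultures, at 10271 CPM in 4T1 CM and 4049 CPM in DMEM. With the replicate number as a block over all macrophage libraries, the change was 1.70 with an adjusted p of 0.00211 in edgeR. No label gives this pairing, which was read from these same data, so the blocked run is not a separate test of the change. The block also covered groups whose numbers were not taken as pairs. Macrophages alone in 4T1 CM, at 13.3 ± 4.21 (n = 4), and at day 0, at 17.4 ± 4.16 (n = 3), differed by a log2 change of -0.33 ± 0.71 with an adjusted p of 0.812 in edgeR, where 21.9% of genes passed. Co-culture in 4T1 CM was above day 0 by 4.59 ± 0.59 with an adjusted p of 1.77e-05, where 31.5% of genes passed.

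Fibroblast markers moved with Csf1 in these libraries. In each of the 3 comparisons of a co-culture with mono-culture or day 0, all 18 fibroblast markers tested were higher in the co-cultured macrophages. Over all genes, 14% were higher in co-culture than in mono-culture in 4T1 CM, 16.7% in co-culture in 4T1 CM than at day 0 and 8.47% in co-culture in DMEM than at day 0. The level of Csf1 in a macrophage library was therefore expressed as a percent of its mean CPM in fibroblasts sorted from co-culture in the same medium (4T1 CM for macrophages alone in 4T1 CM, DMEM for day 0). The same percent was taken for each of the 20 fibroblast markers, whose median is called the fibroblast share. In macrophages co-cultured in 4T1 CM, Csf1 was at 4.21%, 4.38%, 16.1% and 4.04% of the fibroblast level, beside fibroblast shares of 2.84%, 2.56%, 19.2% and 6.00%. In macrophages co-cultured in DMEM, Csf1 was at 1.85%, 2.94% and 7.26%, beside fibroblast shares of 2.25%, 1.94% and 6.71%. In 3 of these 7 libraries Csf1 was below the share, and it lay within the range of the single markers in all of them. In macrophages alone in 4T1 CM it was at 0.144% to 0.264%, beside shares of 0% to 0.165%, and at day 0 at 0.374% to 0.590%, beside shares of 0.0360% to 0.0486%. Of the 20 markers, 2 to 12 were at 0 per library in macrophages alone in 4T1 CM and 4 to 6 at day 0. Lum was at 0 in both of these groups, and Col5a2 was at 0 in all 4 libraries of macrophages alone in 4T1 CM. The highest marker at day 0 was Pdgfrb, at 0.909% to 1.72%. Alone in 4T1 CM it was Pdgfrb or Pdgfra, at 0.633% to 0.904%, and in both groups these were above Csf1. What part of the Csf1 reads in co-cultured macrophage libraries came from fibroblast RNA was not tested beyond these values.

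**Figure D2:**
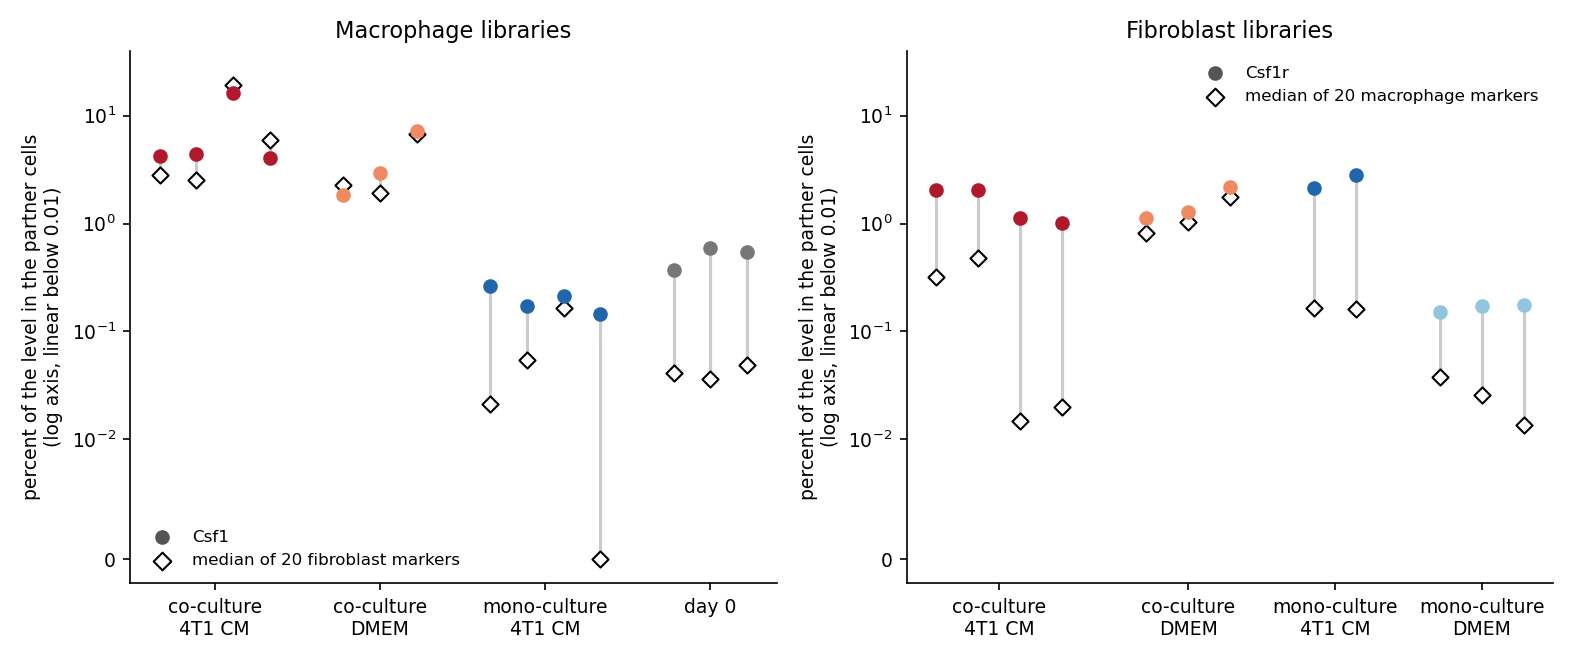
Csf1 in macrophage libraries (left) and Csf1r in fibroblast libraries (right), each as a percent of its level in the partner cells (filled circles, log axis, linear below 0.01), beside the median percent of 20 markers of the partner cell type in the same library (diamonds). Csf1 lies near the diamonds in co-cultured macrophages, while Csf1r lies above them in all 12 fibroblast libraries and closest to them in co-culture in DMEM.

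Csf1r in macrophages showed the opposite ordering, with the lowest levels in co-culture in 4T1 CM. It stood at 3999, 3591, 2673 and 3077 normalized reads in macrophages co-cultured in 4T1 CM, against 15096, 12013, 11365 and 12539 in macrophages alone in 4T1 CM. The groups were far apart, and Csf1r fell by 1.95 ± 0.19 on the log2 scale with co-culture (adjusted p = 3.39e-06, edgeR). Against co-culture in DMEM, with 10502, 7181 and 6774, the same libraries were again all lower. That log2 change was -1.28 ± 0.20 with an adjusted p of 0.000435 in edgeR.

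Against day 0, neither co-culture in DMEM nor mono-culture in 4T1 CM gave a change of Csf1r past the threshold. Macrophages co-cultured in DMEM had 8153 ± 2045 (SD, n = 3) and day 0 cells 9255 ± 2016 (n = 3), a log2 change of -0.17 ± 0.21 with an adjusted p of 0.692 in edgeR. Macrophages alone in 4T1 CM had 12753 ± 1634 (n = 4), and all 4 were above the day 0 libraries at 7069, 11041 and 9654. The log2 change was 0.49 ± 0.20 with an adjusted p of 0.0921 in edgeR. Co-culture in 4T1 CM, at 3335 ± 581 (n = 4), was below day 0 by a log2 change of -1.45 ± 0.20 with an adjusted p of 3.07e-05. The order by mean was macrophages alone in 4T1 CM, day 0, co-culture in DMEM and co-culture in 4T1 CM. Day 0 and co-culture in DMEM overlapped, and the lowest group stood apart from the rest. Because macrophages kept alone in DMEM past day 0 were not analysed here, no interaction of co-culture and medium could be fitted for macrophages.

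The fibroblast share was 2.56% to 19.2% in these co-cultures in 4T1 CM, and their mean Csf1r was 3335 normalized reads, against 12753 in macrophages alone in 4T1 CM. Other macrophage genes also differed between the cultures: of the 20 macrophage markers, 12 were lower in co-culture than in mono-culture in 4T1 CM and 1, Cd14, was higher, where 11.9% of all genes were lower and 14% higher. The 12 include Adgre1, which encodes the F4/80 used for selection, and the complement genes C1qa, C1qb and C1qc. The median log2 change of the 20 markers was -0.67, against 0.03 over all genes tested. Hmgxb3, the gene that overlaps the end of Csf1r, had 40.7 to 115 normalized reads over all macrophage libraries, and none of the sources used here says whether counting used strand. Hmgxb3 was higher in co-culture in 4T1 CM than at day 0, where Csf1r was lower, at 87.9 against 50.9 with overlapping libraries. That log2 change was 0.79 ± 0.20 (adjusted p = 0.00631, edgeR), and Hmgxb3 passed in no other macrophage comparison.

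**Figure D3:**
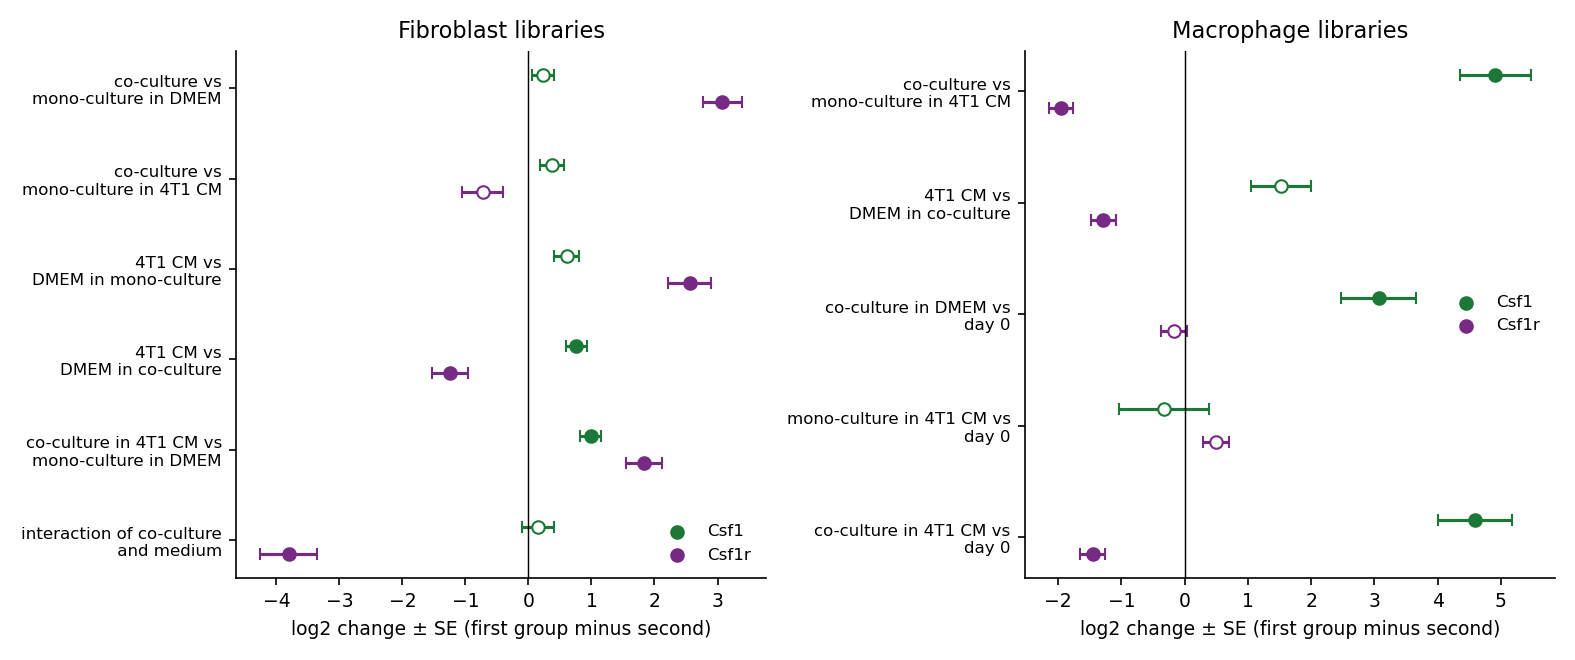
Log2 change with its standard error for Csf1 and Csf1r in each comparison of fibroblast libraries (left, limma) and macrophage libraries (right, edgeR), first named group minus second. Filled points passed an adjusted p of 0.05, and in the macrophage comparisons of co-culture in 4T1 CM Csf1 lies right of 0 and Csf1r left of it.

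Fibroblast libraries also held reads of Csf1r, at levels far below those of macrophages. It stood at 97.1, 103, 54.7 and 49.98 normalized reads in fibroblasts co-cultured in 4T1 CM, against 131, 154 and 258 in those co-cultured in DMEM. These groups did not overlap, and Csf1r fell by 1.25 ± 0.29 on the log2 scale with 4T1 CM in co-culture (adjusted p = 0.0205, limma). The adjusted p was 0.0867 without co-culture DMEM replicate 3 and 0.0599 with the compared groups alone. In mono-culture the direction was the other one. Csf1r stood at 105 and 139 in 4T1 CM, against 17.9, 20.3 and 20.8 in DMEM, and rose by 2.56 ± 0.34 (adjusted p = 0.000537, limma).

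Co-culture in DMEM was above mono-culture in DMEM by 3.08 ± 0.31 (adjusted p = 0.000427, limma). In 4T1 CM, co-cultured fibroblasts averaged 76.2 ± 27.7 (SD, n = 4) and fibroblasts alone 122 ± 24.0 (n = 2), a log2 change of -0.73 ± 0.33 with an adjusted p of 0.519. Co-culture in 4T1 CM remained above mono-culture in DMEM by 1.83 ± 0.29 (adjusted p = 0.00165, limma). The difference between the 2 responses to 4T1 CM was itself large, at -3.81 ± 0.45 on the log2 scale with an adjusted p of 0.00462 in limma. The order by mean was co-culture in DMEM, mono-culture in 4T1 CM, co-culture in 4T1 CM and mono-culture in DMEM. The first 2 groups overlapped, the libraries of mono-culture in 4T1 CM lay just above those of co-culture in 4T1 CM, and mono-culture in DMEM stood well below the rest.

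The count of macrophage markers that passed differed between these comparisons. Of 19 macrophage markers tested, 14 were higher in co-culture than in mono-culture in DMEM, and 15 were lower in co-culture in 4T1 CM than in co-culture in DMEM, where 0.855% of all genes were higher and 3.52% lower. In mono-culture, where no macrophages were added, 2 of 19 were higher in 4T1 CM than in DMEM, Cd14 and Trem2, beside 6.36% of all genes. The median log2 change of the 19 was 1.24 there, against -0.01 over all genes, in the direction of Csf1r. Csf1r was set against the macrophage share, its median percent over 20 markers of the level in macrophages from co-culture in the same medium. In co-culture in DMEM, Csf1r was at 1.12%, 1.28% and 2.17% of the macrophage level, beside macrophage shares of 0.820%, 1.02% and 1.76%.

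Csf1r was above the macrophage share in all 12 fibroblast libraries, and on a log scale the gap was smallest in co-culture in DMEM. The macrophages used as the reference averaged 1230 CPM of Csf1r in co-culture in 4T1 CM and 3001 CPM in co-culture in DMEM. This lower reference raises the percent of Csf1r in the 4T1 CM groups, so the gaps are not on one scale between media. In co-culture in 4T1 CM it was at 2.04%, 2.04%, 1.12% and 1.01%, beside shares of 0.320%, 0.478%, 0.0148% and 0.0199%. In mono-culture in 4T1 CM it was at 2.13% and 2.82%, beside shares of 0.166% and 0.160%. In mono-culture in DMEM it was at 0.153%, 0.171% and 0.176%, beside shares of 0.0377%, 0.0258% and 0.0136%. Csf1r was above 17 to 20 of the 20 markers in the co-cultures in 4T1 CM, above 15 in each co-culture in DMEM, above 19 or 20 in the mono-cultures in 4T1 CM and above 15 to 17 in the mono-cultures in DMEM. Of the 20 markers, 1 to 7 were at 0 per library in co-culture in 4T1 CM, 1 in mono-culture in 4T1 CM and 3 to 8 in mono-culture in DMEM. Fcgr1 was at 0 in every fibroblast library outside co-culture in DMEM, and Ptprc, which encodes CD45, was at 0 in mono-culture in DMEM. The highest marker was Cd74 in mono-culture in 4T1 CM, at 3.59% and 2.43%. In mono-culture in DMEM it was Mertk, at 4.49% to 6.74%. Hmgxb3 kept to 147 to 189 normalized reads in fibroblasts, with overlapping groups in mono-culture, where it had a log2 change of 0.07 ± 0.15 with 4T1 CM (adjusted p = 0.813, limma). In co-culture the groups did not overlap, at 176 in 4T1 CM against 155 in DMEM, with a log2 change of 0.18 ± 0.13 (adjusted p = 0.491, limma). Endothelial markers summed to 16.6 to 39.6 CPM in co-culture in 4T1 CM and 48.1 to 133 CPM in co-culture in DMEM, and to 31.2 to 37.3 CPM in mono-culture in 4T1 CM and 26.7 to 31.6 CPM in mono-culture in DMEM.

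On the common scale of CPM, ligand and receptor lay in different cells. Csf1 averaged 2171 ± 159 CPM in fibroblasts co-cultured in 4T1 CM and 156 ± 129 CPM in the macrophages of the same condition (SD, n = 4 each). In co-culture in DMEM it averaged 1314 ± 280 CPM in fibroblasts and 52.8 ± 37.6 CPM in macrophages (n = 3 each). Csf1r averaged 1230 ± 211 CPM in macrophages and 19.1 ± 6.93 CPM in fibroblasts in co-culture in 4T1 CM, and 3001 ± 686 CPM in macrophages and 45.8 ± 17.0 CPM in fibroblasts in co-culture in DMEM. The tables of the cell types were filtered and normalized separately, so no test was made between them. Co-culture in 4T1 CM was thus the condition with the highest mean of Csf1 in fibroblasts and the lowest mean of Csf1r in macrophages among the 4 groups of each cell type.

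The other colony-stimulating factors were scarce. Il34, the second ligand of Csf1r, is listed for fibroblasts and not for macrophages. It averaged 17.4 ± 11.7 normalized reads in mono-culture in 4T1 CM (SD, n = 2) and 24.5 ± 5.42 in mono-culture in DMEM (n = 3), with a log2 change of -0.62 ± 0.45 that did not pass and turned to 0.086 without mono-culture 4T1 CM replicate 2. Csf2, the granulocyte-macrophage factor, had 7.42 and 7.90 normalized reads in fibroblasts alone in 4T1 CM and no read in the 3 libraries alone in DMEM, and it passed the test (adjusted p = 0.0133, limma). With 1 of the 2 libraries in 4T1 CM left out, the adjusted p was 0.0946 or 0.0543. Csf3, the granulocyte factor, had 24.1 ± 3.31 normalized reads in mono-culture in 4T1 CM (n = 2) and 1.02 ± 1.02 in mono-culture in DMEM (n = 3), and rose by 3.77 ± 0.65 (adjusted p = 0.00264, limma). In co-culture Csf3 had 12.5 ± 9.05 in 4T1 CM (n = 4) and 0.645 ± 0.563 in DMEM (n = 3), and rose by 2.89 ± 0.55 (adjusted p = 0.00776).

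Receptors of these factors changed with Csf1r in macrophages, in different directions. Of the 6 genes of the family listed for macrophages, 4 were lower and 1 was higher in co-culture than in mono-culture in 4T1 CM, and the higher one was Csf1. Over all genes, 11.9% were lower and 14% higher there. Csf3r, the granulocyte factor receptor, had 22.2 normalized reads in co-culture and 215 in mono-culture in 4T1 CM, and fell by 3.29 ± 0.33 (adjusted p = 3.76e-06, edgeR). It was also lower in co-culture in 4T1 CM than in co-culture in DMEM, at 22.2 against 107 (log2 change -2.25 ± 0.35, adjusted p = 0.000471). Csf2rb encodes the common beta chain shared by the receptors of Csf2, Il3 and Il5, and Csf2rb2 is its near-identical neighbour for the Il3 receptor, so reads may be split between them. In macrophages alone in 4T1 CM, against day 0, Csf2rb had 2134 against 547 (log2 change 2.00 ± 0.21, adjusted p = 2.34e-06) and Csf2rb2 1556 against 346 (2.20 ± 0.21, adjusted p = 8.57e-07). In co-culture in 4T1 CM, against co-culture in DMEM, Csf2rb had 1416 against 521 (1.45 ± 0.20, adjusted p = 0.000213) and Csf2rb2 853 against 383 (1.16 ± 0.20, adjusted p = 0.00119). Both were lower in co-culture than in mono-culture in 4T1 CM, Csf2rb at 1416 against 2134 (-0.60 ± 0.18, adjusted p = 0.0198) and Csf2rb2 at 853 against 1556 (-0.88 ± 0.18, adjusted p = 0.00172). The adjusted p of Csf2rb there was 0.0633 without co-culture 4T1 CM replicate 3 and 0.0692 without co-culture 4T1 CM replicate 4. Csf2ra, the alpha chain for Csf2, was lower in co-culture in 4T1 CM than at day 0, at 390 against 759 (-0.94 ± 0.18, adjusted p = 0.000641).

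Among the relatives of the receptor, Kit is listed for fibroblasts and not for macrophages, and Flt3 for neither. Their ligand genes Kitl and Flt3l were tested in fibroblasts, and Flt3l in macrophages, and neither passed in any of these comparisons.

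Of 17 genes that carry the signal of Csf1r, 3 were lower and 1 was higher in co-culture than in mono-culture in 4T1 CM in macrophages, with a median log2 change of -0.23, against 0.03 over all genes. These 4 of 17 are near the 26.0% of all genes that passed there. Pik3cd, the leukocyte catalytic subunit of phosphatidylinositol 3-kinase, had 149 normalized reads in co-culture and 369 in mono-culture, and fell by 1.31 ± 0.16 (adjusted p = 1.76e-05, edgeR). The adaptor Grb2 was also lower, and the higher one was the kinase gene Fgr. Pik3cd and Grb2 were lower too in co-culture in 4T1 CM than in co-culture in DMEM, where Src was higher, although not without co-culture 4T1 CM replicate 3. Tyrobp, Syk, Akt1 and Mapk3 did not pass in any macrophage comparison.

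Of 7 inhibitors of the signal, 3 were lower and 1 was higher in co-culture than in mono-culture in 4T1 CM, where 11.9% of all genes were lower and 14% higher. Ptpn6, which encodes the phosphatase SHP-1, had 715 against 1366 normalized reads (-0.95 ± 0.15, adjusted p = 0.000292, edgeR). The adaptor Dok1 had 278 against 535 (-0.96 ± 0.16, adjusted p = 0.000409), while its relative Dok2 had 608 against 324 and rose by 0.89 ± 0.23 (adjusted p = 0.00776). Socs3, a feedback inhibitor of cytokine receptors, was higher than at day 0 in every other macrophage group. It averaged 783 in co-culture in 4T1 CM, 421 in co-culture in DMEM and 602 in mono-culture in 4T1 CM, and 21.7 at day 0 (log2 changes 5.19 ± 0.28, 4.29 ± 0.28 and 4.82 ± 0.28, with adjusted p-values of 2.83e-09, 1.12e-07 and 8.11e-09 in edgeR). Socs1, another of these inhibitors, was higher in 4T1 CM, at 40.5 in co-culture in 4T1 CM and 7.67 in co-culture in DMEM (2.32 ± 0.33, adjusted p = 0.000231), and at 53.8 in mono-culture in 4T1 CM and 14.1 at day 0 (1.97 ± 0.29, adjusted p = 9.37e-05). In co-cultured macrophages Socs3 stood at 43.6% to 108% of its fibroblast level and Socs1 at 3.48% to 29.2%, beside the fibroblast shares given above.

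Of 15 factors known to act on transcription of Csf1r, or downstream of it, 5 were lower and 2 were higher in co-culture than in mono-culture in 4T1 CM, with a median log2 change of -0.43. Over all genes, 11.9% were lower and 14% higher. Spi1, which encodes PU.1, the main activator of the Csf1r gene, had 1574 against 2373 normalized reads (-0.61 ± 0.17, adjusted p = 0.0126, edgeR). Cebpa had 242 against 401 (-0.74 ± 0.18, adjusted p = 0.00609), with 1 co-culture library below the other 3, and Runx1 166 against 259 (-0.65 ± 0.15, adjusted p = 0.00332). Both partner with PU.1 in myeloid cells. Klf4, a monocyte differentiation factor, had 412 against 198 (1.05 ± 0.18, adjusted p = 0.000472), and Ets2 328 against 136 (1.25 ± 0.24, adjusted p = 0.00121).

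Spi1, Cebpa and Runx1 did not pass between co-culture in 4T1 CM and co-culture in DMEM, where Csf1r was lower. There Klf4 had 412 against 130 (1.68 ± 0.20, adjusted p = 5.97e-05) and Cebpb 1599 against 793 (1.01 ± 0.20, adjusted p = 0.00332), and these were the only 2 of the 15 that passed, beside 10.3% of all genes. Egr2, an early growth-response gene, was lower in co-culture in DMEM than at day 0, at 4.66 against 41.8 (-3.15 ± 0.35, adjusted p = 1.75e-05), in a comparison with 8 of 15 higher and 1 lower, beside 8.47% and 6.71% of all genes.

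**Figure D4:**
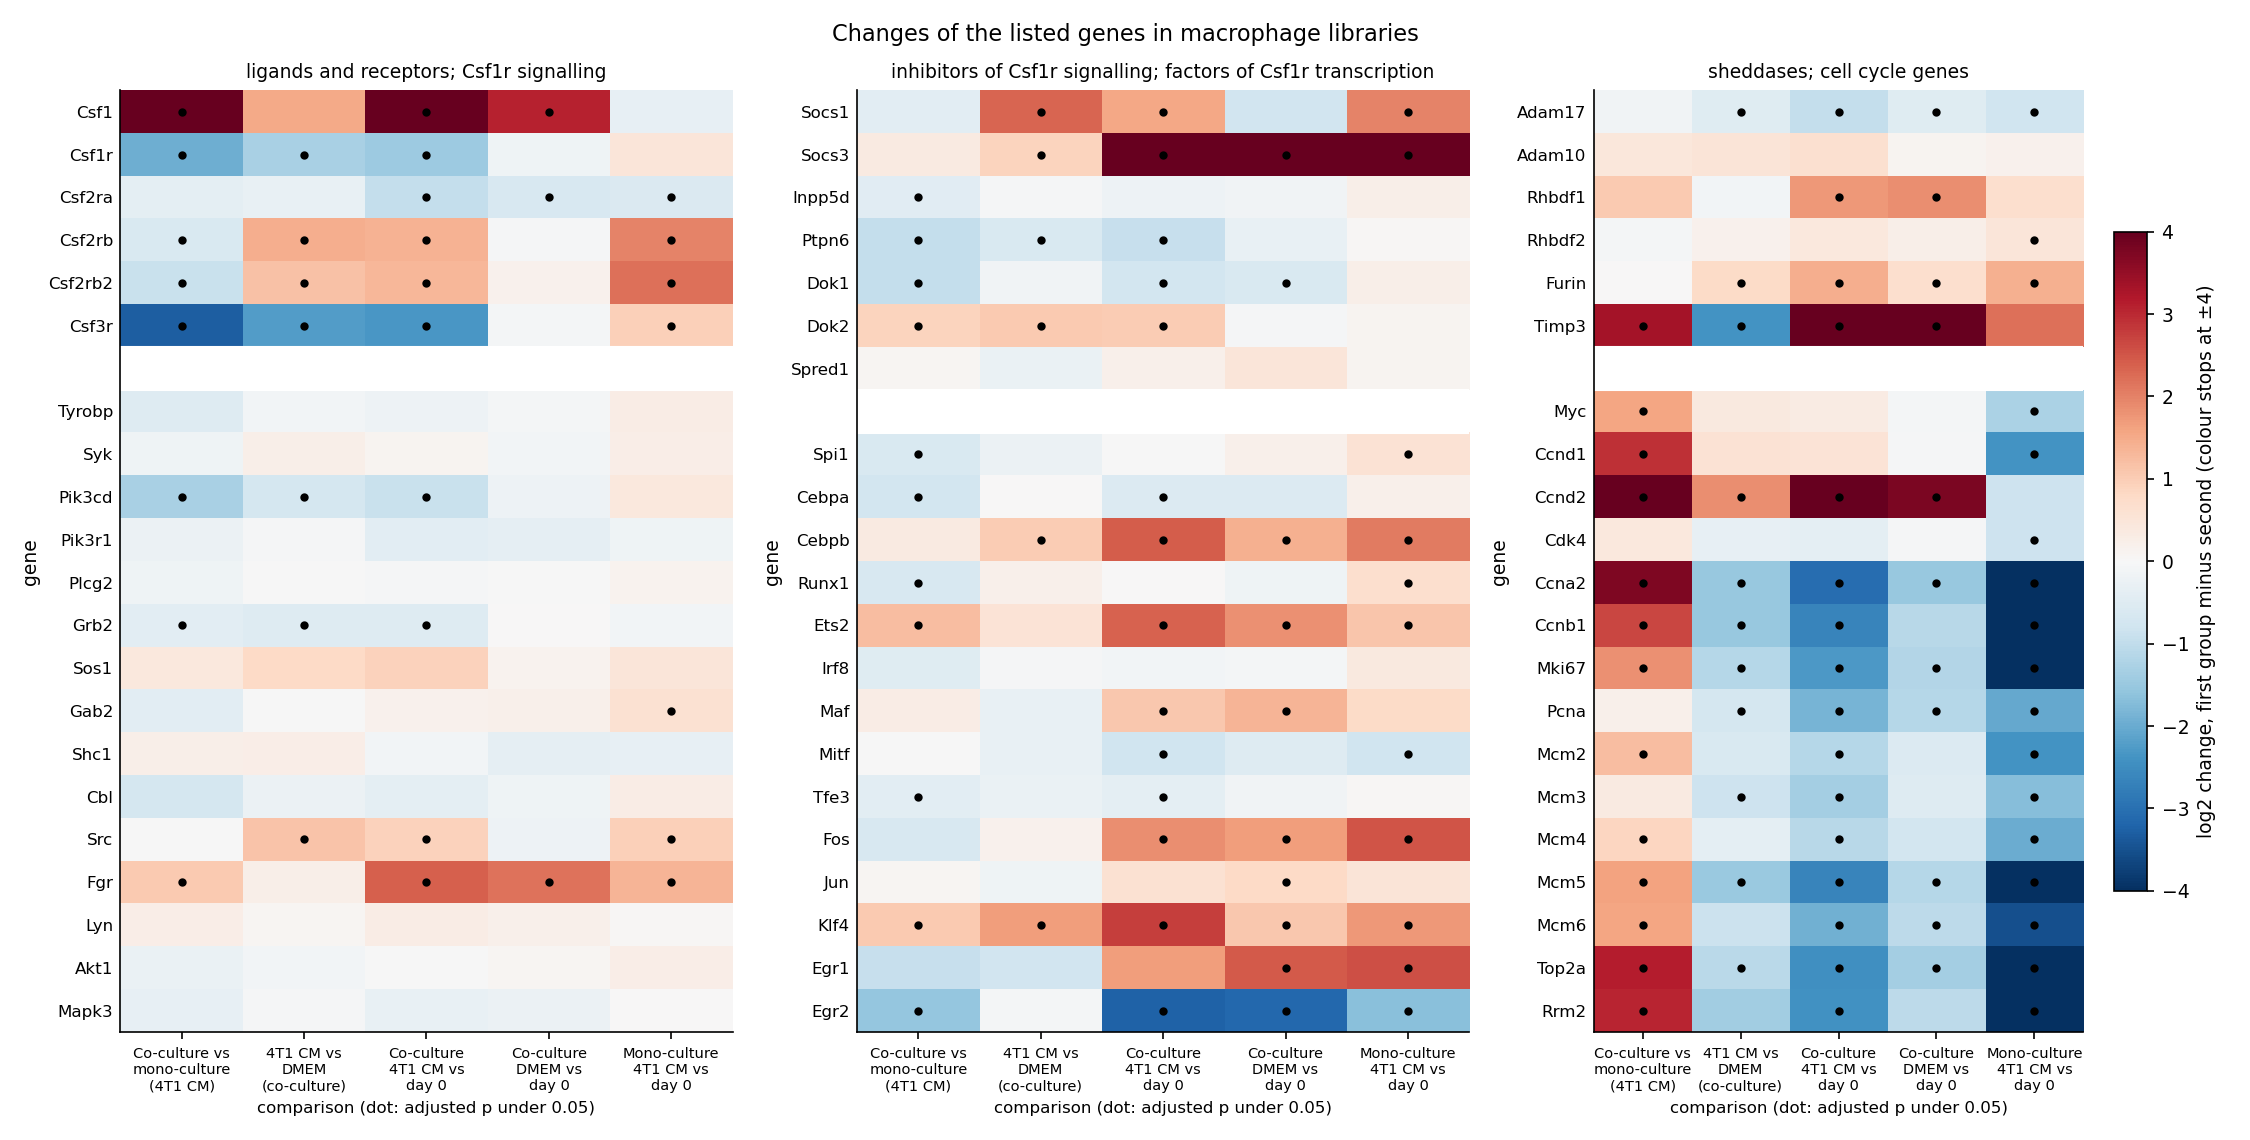
Log2 changes (colour, red for higher and blue for lower in the first named group) of genes of the lists in 5 macrophage comparisons, with a dot where the adjusted p of edgeR was under 0.05. Rows are genes and columns are comparisons, and cell cycle genes are red against mono-culture in 4T1 CM and mostly blue against day 0.

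Cell cycle genes, whose activity in macrophages is known to depend on Csf1 for entry into the cycle, differed between most groups. Of 15, 12 were higher and none lower in macrophages co-cultured in 4T1 CM than in macrophages alone in 4T1 CM, with a median log2 change of 1.60, where 14% of all genes were higher and 11.9% lower. Mki67, a proliferation marker, had 42.9 against 12.01 normalized reads (1.83 ± 0.40, adjusted p = 0.00296, edgeR). Top2a, a topoisomerase of dividing cells, had 107 against 12.2 (3.13 ± 0.39, adjusted p = 3.04e-05). The cyclin genes Ccnd1, at 1076 against 140 (2.93 ± 0.41, adjusted p = 9.11e-05), and Ccnd2, at 236 against 2.52 (6.45 ± 0.54, adjusted p = 9.51e-07), rose as well. Myc, a growth-promoting transcription factor, had 52.0 against 16.7 (1.58 ± 0.32, adjusted p = 0.00152). The count was also 12 without co-culture 4T1 CM replicate 3, the library with the highest fibroblast share.

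Fibroblasts express these genes as well. In the 4 libraries of co-culture in 4T1 CM, Mki67 was at 28.8% to 88.0% and Top2a at 28.4% to 77.5% of the fibroblast level, Ccnd1 at 74.9% to 143% and Ccnd2 at 15.8% to 45.0%. Ccna2 at 6.82% to 18.3%, Ccnb1 at 8.30% to 22.0% and Myc at 10.1% to 23.0% were nearer to the fibroblast shares of 2.56% to 19.2%, and the part of fibroblast RNA in them was not tested.

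Against day 0, 14 of the 15 were lower in macrophages alone in 4T1 CM, with a median log2 change of -2.40, beside 10.9% of all genes lower. Mki67 had 12.01 against 221 (-4.13 ± 0.38, adjusted p = 6.43e-07), Top2a 12.2 against 613 (-5.58 ± 0.39, adjusted p = 5.82e-08) and Ccnd1 140 against 758 (-2.40 ± 0.42, adjusted p = 0.000541). The change of Ccnd1 was -1.35 without day 0 replicate 1. Co-culture in 4T1 CM had 11 lower and 1 higher than day 0, beside 14.8% and 16.7% of all genes. Co-culture in DMEM had 6 lower and 1 higher than day 0, beside 6.71% and 8.47%, and Ccnd2 was the higher one in both. Between the co-cultures, 7 were lower and 1 was higher in 4T1 CM, beside 4.63% and 5.68% of all genes, and 4 were lower without co-culture 4T1 CM replicate 3. Mcm5, a replication helicase subunit, had 59.6 against 175 there (-1.48 ± 0.31, adjusted p = 0.00442).

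Sheddases release membrane-bound Csf1 or cut its receptor from the cell surface. Adam17, the main sheddase of both proteins, was lower than at day 0 in macrophages co-cultured in 4T1 CM, at 247 against 487 (-0.96 ± 0.12, adjusted p = 1.32e-05, edgeR). It was lower too in macrophages alone in 4T1 CM, at 271 against 487 (-0.81 ± 0.12, adjusted p = 8.84e-05). Without 4T1 CM, macrophages co-cultured in DMEM also passed as lower than day 0, at 348 against 487. Of 6 genes in this list, 3 were higher and 1 lower in each co-culture than at day 0. In mono-culture in 4T1 CM 2 were higher and 1 lower. Over all genes, 16.7% were higher and 14.8% lower in co-culture in 4T1 CM, 8.47% and 6.71% in co-culture in DMEM, and 11.1% and 10.9% in mono-culture. Furin, a protease that activates Adam17, had 500 in macrophages alone in 4T1 CM and 191 at day 0 (1.42 ± 0.14, adjusted p = 1.95e-06). Furin also passed as higher than day 0 in both co-cultures, at 514 in 4T1 CM and 301 in DMEM. It was also higher in co-culture in 4T1 CM than in co-culture in DMEM, at 514 against 301 (0.78 ± 0.14, adjusted p = 0.00182). In fibroblasts, Rhbdf2, a partner of Adam17, had 88.5 normalized reads in mono-culture in 4T1 CM and 22.4 in mono-culture in DMEM (2.06 ± 0.44, adjusted p = 0.00871, limma), with an adjusted p of 0.072 without mono-culture 4T1 CM replicate 1. Of the 6 genes, Rhbdf2 was the 1 higher with 4T1 CM in mono-culture, and 2 were lower, Rhbdf1 and Timp3. Over all genes, 6.36% were higher and 6.93% lower there. In co-culture 0 of the 6 were higher with 4T1 CM and the same 2 were lower, beside 2.33% and 3.52% of all genes. Timp3, the inhibitor of Adam17, fell with 4T1 CM by 3.85 ± 0.47 in mono-culture, at 115 against 1683 (adjusted p = 0.000302), and by 2.99 ± 0.39 in co-culture, at 180 against 1515 (adjusted p = 0.000724).

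The other lists were tested in fibroblasts as well. Of the 15 transcription factors, Cebpb was higher with 4T1 CM in mono-culture, at 4368 against 1333 (1.69 ± 0.20, adjusted p = 0.000241, limma), and in co-culture, at 3225 against 1267 (1.35 ± 0.17, adjusted p = 0.000477). Spi1 had 5.60 normalized reads in mono-culture in 4T1 CM and 0.171 in mono-culture in DMEM, where Csf1r was higher in 4T1 CM. The groups did not overlap, and the log2 change of 2.43 ± 1.02 did not pass (adjusted p = 0.131, limma). Socs1 had 313 in mono-culture in 4T1 CM against 144 in mono-culture in DMEM (1.11 ± 0.19, adjusted p = 0.00267). Of the 7 inhibitors, it was the 1 higher there and Ptpn6 the 1 lower, at 0.825 against 5.45 normalized reads. Over all genes, 6.36% were higher and 6.93% lower. Of 15 cell cycle genes, 5 were higher with 4T1 CM in mono-culture, with a median log2 change of 0.76, beside 6.36% of all genes. Among them, Mcm6 had 279 against 98.5 (1.52 ± 0.31, adjusted p = 0.00748). None of the 15 passed with 4T1 CM in co-culture, beside 5.85% of all genes. None passed for the interaction either, beside 0.145% of all genes, so no difference between the 2 responses was shown.

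The genes whose log2 levels followed each member most closely across libraries were ranked by Pearson's r, as a description over libraries that share groups. Over the 12 fibroblast libraries and 9139 genes, those nearest to Csf1 were Coq6, Lclat1, Ereg, Ptgs1 and Map2k1, with r between 0.927 and 0.936. Ereg encodes a ligand of the epidermal growth factor receptor and Ptgs1 a cyclooxygenase. Those nearest to Csf1r were Arrb1, Adam8, Cacna1h, Ptpn5 and Gjb5, with r between 0.911 and 0.936. Over the 14 macrophage libraries and 7761 genes, Ccn2, Mrc2, Ndufa4l2, Lrrc32 and P3h4 were nearest to Csf1, with r between 0.978 and 0.981. Clec4a1, a C-type lectin gene, was nearest to Csf1r with an r of 0.99, and Bloc1s1, Lrch4 and Gdpd3 were among the next, with r down to 0.961.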

How the data were processed

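Per the labels, poly(A) RNA of sorted or cultured cells was sequenced with a massively parallel protocol. Per the submitters' processing notes, STAR 2.4.2a, HTSeq, bcl2fastq and the mm10 build were used, but no source used here gives their roles or the use of strand. The authors deposited raw counts for macrophages, and for both cell types a normalized signal per gene, which is reads divided by 1 size factor per library. For fibroblasts every value times its factor came within 0.001 of a whole number of reads. Fibroblasts were tested with limma 3.58.1 on log2(value + 1) for the 12401 genes with at least 5 normalized reads in 2 libraries, and fold changes of low genes are understated on that scale. Macrophages were tested with edgeR 4.0.16 (TMM, filterByExpr) on the deposited counts of 10088 genes. All libraries of a cell type shared 1 fit, p-values were adjusted over all genes tested by Benjamini-Hochberg, and both procedures were tested on simulated data. Alternatives included DESeq2 1.42.0. CPM is over the reads of the listed genes. The members and all gene lists were chosen with earlier results of these data known. Named genes are the members, list members and the 5 genes nearest to each member by Pearson's r among genes with a mean of at least 20. Between the macrophage co-cultures, the deviations of the 3 same-numbered pairs from their group means correlated at 0.249, 0.185 and 0.416 across genes. These numbers were taken as pairs there, although an unmatched pair, co-culture 4T1 CM replicate 4 with co-culture DMEM replicate 1, correlated at 0.212. No label says what a number stands for, and in no other comparison did every pair exceed 0.1. The number of libraries limits the precision of every value. Some members of the lists enter the counts and are not reported here by name.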

Additional observations from a re-analysis of the deposited data

Results flagged for a closer look

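A sample was taken up here where, in a group of 4, its distance to the nearest other library exceeded the 95% critical value of Dixon's test, which chance gives in about 1 in 20 groups. In macrophages co-cultured in 4T1 CM, replicate 3 lay far above the others for Csf1, at 940 normalized reads. It lay above them as well for Csf1 as a percent of the fibroblast level, at 16.1%, and for the summed fibroblast markers, at 10271 CPM. In the same group, Cebpa in replicate 1 was far below the others, at 171 normalized reads. In macrophages alone in 4T1 CM, the summed epithelial markers of replicate 3 were 0.860 CPM, while the others were at 0. The response of Csf1r to 4T1 CM in fibroblasts differed between co-culture and mono-culture, with a log2 difference of -3.81 by limma's test of the interaction. Causes were not tested.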

How the results depend on the processing

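Every call for Csf1r in macrophages, and those for Csf1 against mono-culture or day 0, kept direction and side of the threshold under each alternative run. Csf1 in fibroblasts alone (4T1 CM against DMEM) passed after quantile normalization (log2 change 0.58), with edgeR (0.61), DESeq2 (0.62) and the compared groups alone (0.61). Csf1 with 4T1 CM in co-cultured fibroblasts ranged from 0.55 to 0.87 as single libraries were left out, Csf1r there from -1.45 to -0.96, and Csf1 between macrophage co-cultures from 0.78 to 2.29. Csf1r in co-cultured fibroblasts did not pass with the compared groups alone (-1.25). The interaction for Csf1 ranged from -0.055 to 0.32, and was -0.024 without mono-culture 4T1 CM replicate 2. Il34 in fibroblasts alone (4T1 CM against DMEM) ranged from -1.32 to 0.086 and turned positive without mono-culture 4T1 CM replicate 2. The cause of these shifts was not tested.

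Shared replicate numbers were taken as pairs for the macrophage co-cultures and for no other groups compared. Over all groups, same-numbered libraries correlated between -0.323 and 0.276 in fibroblasts (2 of 15 pairs above 0.1). In macrophages they correlated between -0.274 and 0.416 (8 of 19 above 0.1). Those that correlated best with their own number were 3 of 12 fibroblast and 6 of 14 macrophage libraries. With the replicate block, Csf1r with 4T1 CM in co-cultured fibroblasts was -1.07 (adjusted p = 0.0702, limma), its interaction -3.64 (0.0505), and Csf1 between macrophage co-cultures 1.70 (0.00211, edgeR). With the block the count of changed genes was 0, against 3, between fibroblasts with and without macrophages in 4T1 CM, and 1, against 18, for the interaction in fibroblasts. It changed no other call among the results recomputed with it.

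Counts of changed genes depended on settings more than the members did. For fibroblasts in DMEM, co-culture against mono-culture, the count was 124, with 212 by DESeq2, 211 with the compared groups alone, and 18 to 79 with single libraries left out. In 4T1 CM it was 3, with 0 at a pseudocount of 5, after quantile normalization, by edgeR and with the compared groups alone, 28 by DESeq2, and 0 to 297 with single libraries left out; 1155 genes had an unadjusted p under 0.05 in limma. For 4T1 CM against DMEM it was 1648 in mono-culture (537 to 1425) and 725 in co-culture (258 to 818, and 437 with the compared groups alone). Co-culture in 4T1 CM against mono-culture in DMEM gave 1412 (523 to 1653). The interaction gave 18, with 10 by edgeR, 131 by DESeq2 and 2 to 197 with single libraries left out. In macrophages, the co-cultures gave 1040 (540 to 1040) and co-culture in DMEM against day 0 gave 1531 (1000 to 1288).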
